A study of Mus musculus with 12 samples.

Results

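This account covers 31 genes of the piRNA pathway and of germ granules in mouse male germ cells. They were chosen by name for their known function, with earlier results of these data known. A gene was matched by its name in the deposited rows, and where several rows carried the name, the row with the highest mean was taken. A row was found for 30 of the 31 in the spermatocyte libraries and for 24 in the libraries of the GC2 line, out of 37637 and 24600 gene names, and 23 had a row in both. The genes were Piwil1, Piwil2, Piwil4, Ddx4, Ddx25, Mov10l1, Tdrd1, Tdrd3, Tdrd5, Tdrd6, Tdrd7, Tdrd9, Tdrd12, Rnf17, Stk31, Pld6, Asz1, Gpat2, Tdrkh, Pnldc1, Henmt1, Mael, Gtsf1, Fkbp6, Exd1, Tex15, Btbd18, Tex19.1, Nanos2, Nanos3 and Dazl.

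RNA was sequenced in 12 mouse libraries, in 4 groups of 3, to ask how loss of prohibitin (Phb), a protein of the inner mitochondrial membrane, alters the transcriptome of spermatocytes. Control GC2 cells and GC2 cells with PHB knockdown form one pair. GC2 is an immortalised mouse cell line that is labelled as spermatocytes. Spermatocytes of control mice and of Phb conditional knock-out mice form the other pair. These were freed from the tubules by enzymes and enriched on a cell sorter by their DNA content after a Hoechst stain. The knockdown agent, the Cre driver, the strain, the age of the mice and whether the controls carried Cre or a scrambled RNA are unstated in the labels and design text. The latter speaks of biological replicates but ties no library to an animal or culture, so a p-value reflects only how far these samples spread, and that spread may be technical. Values are FPKM, fragments scaled to transcript length and library size, so levels of different genes can be set beside each other per length.

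PIWI-interacting RNAs (piRNAs) are short RNAs of animal germ cells that PIWI proteins carry to matching transcripts, above all those of transposons. In the mouse testis they come in an early wave, made in fetal gonocytes and spermatogonia and rich in transposon sequence, and in a pachytene wave, made in large amounts from long intergenic precursors once spermatocytes reach pachytene. Long precursors are processed on the outer surface of mitochondria, in the intermitochondrial cement that Tudor domain proteins hold together, and the spermatid's chromatoid body is the later granule of the same kind. From this background the genes were sorted into 9 early factors, 15 that act in both waves, 6 that act in pachytene cells or later, and Tdrd3, which most cell types express.

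In spermatocytes most genes of the set were lower in the knockout, with the pachytene factors Tdrd6, Piwil1 and Ddx25 lowest against control. Of the 30 genes with a row, all 30 passed the filter of 1 FPKM in at least 3 of the 6 libraries, 26 fell, 1 rose and 3 were not called (limma, Benjamini-Hochberg adjusted p under 0.05 over all 15957 tested rows). For all tested rows, 79.4% were called, 38.5% lower and 40.9% higher. Of the calls over all rows 51.6% were higher, and 62.0% with quantile normalization. At least 2-fold falls were seen in 15 of the 30, where the share over all rows was 21.6%. The median log2 fold change, on the log2(FPKM + 1) scale used throughout, was -1.20 for the 30 genes and 0.047 for all rows. Groups did not overlap in 27 genes, 26 of them lower in every knockout library, while 81.8% of all rows had groups that did not overlap and 39.6% were lower in that way. Tdrd6 and Nanos2 passed the filter through the control libraries only, so these counts do not stand as independent of the filter for them. In such bulk libraries, fewer cells of a type and less RNA per cell cannot be told apart.

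Summed over the 30 genes, the level was 1642.63 to 1661.72 FPKM in the control and 538.59 to 547.42 in the knockout libraries. The early factors made up 12.2% to 12.4% of this sum in control and 27.3% to 27.8% in knockout libraries. The share of the pachytene factors went from between 22.8% and 23.3% to between 6.76% and 6.83%. Factors of both waves held about the same share, 63.9% to 64.5% and 64.1% to 64.5%. A few genes carry these shares. Mael, the most abundant factor of both waves, had means of 411.7 FPKM in control and 63.2 in knockout libraries. The share of that class without Mael was not computed, so its like share cannot be taken to hold without this gene. Dazl alone held 54.8% to 55.2% of the early sum in control and 70.1% to 70.9% in knockout libraries, and Piwil1 with Tdrd6 held 63.6% to 65.3% of the pachytene sum in control and 5.43% to 5.92% in knockout libraries. Without Dazl the early share was 5.91% to 5.98% in control and 9.86% to 10.3% in knockout libraries, and without Piwil1 and Tdrd6 the pachytene share was 9.53% to 9.72% and 6.40% to 6.49%.

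**Figure D1:**
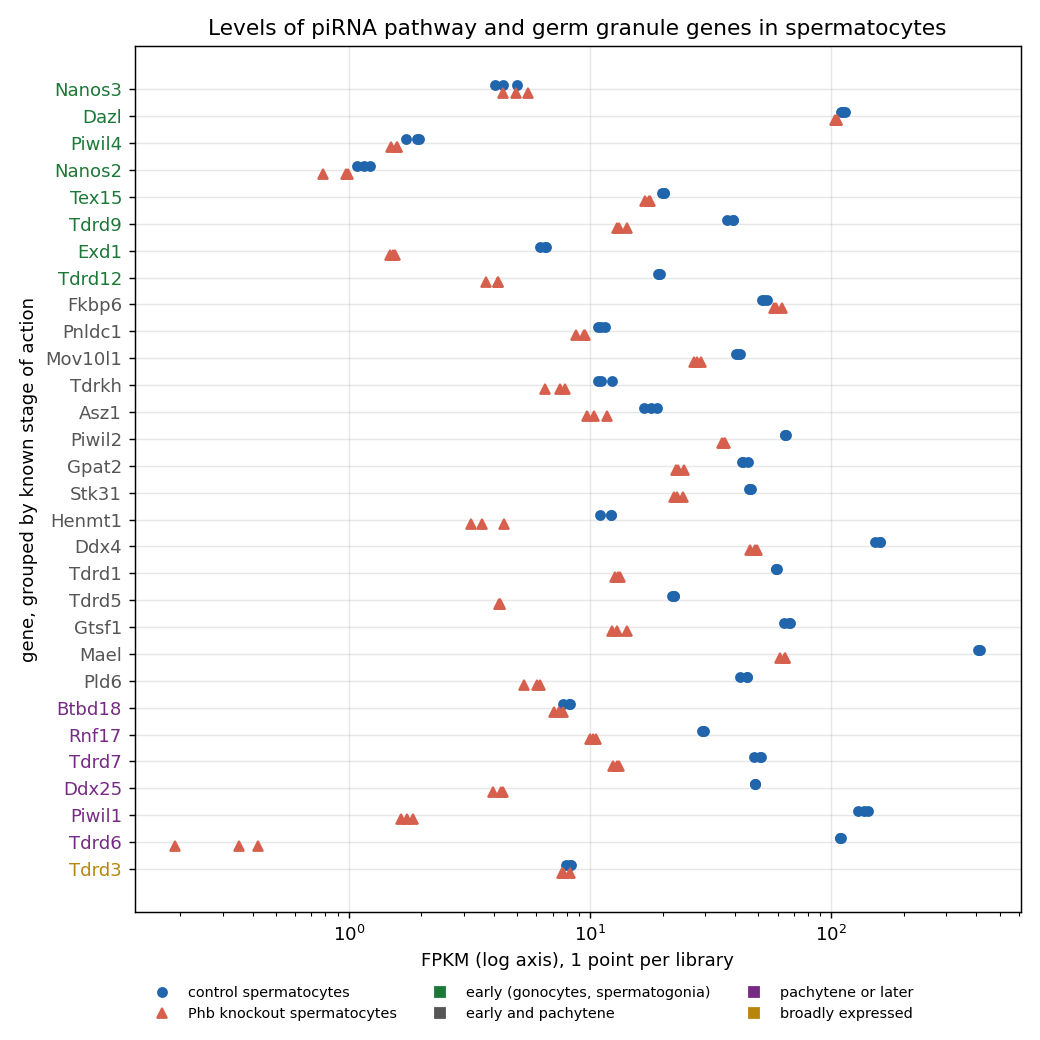
Level of each of the 30 genes in the 6 spermatocyte libraries, as FPKM on a log axis with 1 point per library, grouped and coloured by known stage of action. Circles are control and triangles knockout libraries; Tdrd6 and Piwil1 lie farthest apart, while the points of Nanos3, Btbd18 and Tdrd3 overlap.

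Over all tested rows 38.5% fell, and 21.6% fell at least 2-fold. By class, 7 of 8 early factors fell and 0 rose, with a median log2 fold change of -0.19. Only 3 of them, Tdrd12, Exd1 and Tdrd9, fell at least 2-fold. The early factor Nanos2 and the pachytene factor Tdrd6 passed the filter through the control libraries only. The other called early factors, Piwil4, Nanos2, Tex15 and Dazl, each lost the call or turned sign under some alternatives. With a filter of 5 FPKM, which drops low early genes, the early median lay below that of the factors of both waves. Of the 15 factors of both waves, 14 fell and 1 rose, with a median of -0.97 and 7 at least 2-fold lower. Of the 6 pachytene factors, 5 fell, each at least 2-fold, with a median of -2.56. Btbd18 was the pachytene factor that was not called. The classes overlapped, since the pachytene factors Rnf17 and Tdrd7 fell less than the both-wave factors Pld6, Mael, Gtsf1, Tdrd5 and Tdrd1 and the early factor Tdrd12. No test of the difference between classes was run.

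The same 6 spermatocyte libraries differed in their cell type markers, and the part of this in the results was not tested. All 15 pachytene and diplotene markers fell, with a median of -4.94 and a summed level of 3235 to 3292 FPKM in control and 57.7 to 59.5 in knockout libraries. Ldhc, the testis lactate dehydrogenase gene, was the most abundant, at 1416.14, 1429.77 and 1436.80 against 6.05, 4.79 and 5.38 FPKM. All 20 spermatid markers, which share Acrv1 with the list before, fell as well, from sums of 1189 to 1226 down to 19.4 to 22.9 FPKM. Of these lists, 9 of the 15 and 14 of the 20 reached 1 FPKM in control libraries only, so they entered the test through the group where they were high and their counts support nothing. Leptotene and zygotene markers had a median of -0.17, with 11 of 16 lower and 3 higher and sums of 627 to 643 against 481 to 489. Stra8 is in this list and in the next. The 20 spermatogonial markers had a median of -0.08, with 8 lower and 5 higher and sums of 570 to 602 against 375 to 386. That drop in the sum came from Dmrtb1, at 246.25, 245.68 and 222.72 against 5.99, 6.16 and 6.82 FPKM, and without it the sums were 348 to 356 in control and 369 to 379 in knockout libraries. Sertoli cell markers rose in 21 of 23, with sums of 1463 to 1551 in control and 6251 to 6453 in knockout libraries, and Leydig cell markers rose in all 9 tested, from 50.5 to 54.3 up to 341 to 358. Of 13 tested immune markers 11 rose and 1 fell (sums 34.9 to 43.9 against 49.1 to 52.4), and of 12 myoid and endothelial markers 10 rose and 1 fell (sums 50.9 to 51.96 against 74.4 to 76.1). Here 1 Leydig, 2 immune and 1 myoid or endothelial marker reached 1 FPKM in knockout libraries only, and 1 immune marker in control libraries only. Their calls support nothing either. Over all tested rows 38.5% fell and 40.9% rose. The rows of Cyp11a1, Insl3, Ctsl, Trf, Shbg, Dhh, Cd74, Hormad1 and Izumo1 also name other genes. Phb itself was at 13.3 ± 0.634 (SD, n = 3) and 11.6 ± 0.241 FPKM, so the knockout label has a weak check at the level of the whole gene.

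**Figure D2:**
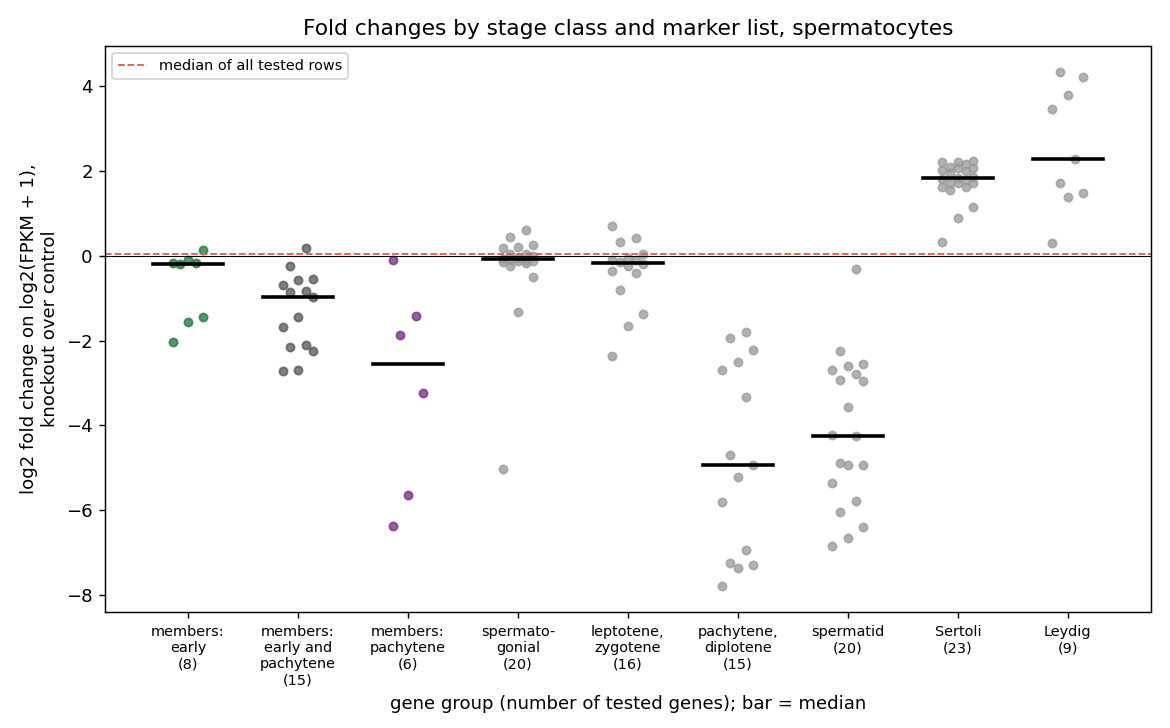
Log2 fold changes, knockout over control spermatocytes on the log2(FPKM + 1) scale, of the early, both-wave and pachytene factors and of 6 marker lists, with 1 point per tested gene. Bars are medians, and the dashed line is the median of all tested rows at 0.047. With the filter of 1 FPKM the class medians are -0.19, -0.97 and -2.56. They stand beside -4.94 for the pachytene and diplotene markers and 1.84 for the Sertoli cell markers. Of the 15 pachytene and diplotene markers 9, and of the 20 spermatid markers 14, reached 1 FPKM in control libraries only. Such genes entered the test through the group where they were high. The order of the early and both-wave medians turns with a filter of 5 FPKM.

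The PIWI proteins carry the piRNAs. Piwil1 (MIWI) binds pachytene piRNAs and is needed to form sperm, Piwil2 (MILI) acts in both waves, and Piwil4 (MIWI2) guides DNA methylation in fetal germ cell nuclei. Piwil1 (ENSMUSG00000029423.10, chromosome 5, 128702524 to 128755474, plus strand, GRCm38) held 128.82, 137.03 and 142.70 FPKM in the control libraries and 1.75, 1.84 and 1.65 in the knockout. The groups lay far apart, with the knockout at 1.28% of the control mean (log2 fold change -5.64, SE 0.049, adjusted p = 8.6e-09 by limma). Piwil2 (chromosome 14, 70372477 to 70429383, minus strand) held 64.87, 64.70 and 64.20 against 36.10, 36.23 and 35.46 FPKM. It kept 55.6% of the control level (log2 fold change -0.83, SE 0.021, adjusted p = 2.7e-07 by limma). Piwil4, which was low in all libraries, held 1.73, 1.92 and 1.95 FPKM against 1.5, 1.59 and 1.58. The log2 fold change of Piwil4 of -0.16 was called (adjusted p = 0.027 by limma), but the call was lost without any 1 library other than control replicate 1 and the sign turned to 0.21 with quantile normalization.

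Because 26 of the 30 genes fell, though by very unlike amounts, the DNA upstream of their starts was searched for letters known from germ cell transcription factors. RefSeq promoter windows (GRCm38.p6, 250 bases before to 50 bases after a start) were at hand for 26 of the 31 genes, leaving out Piwil2, Tdrd6, Rnf17, Pnldc1 and Tex15. On either strand, GGCAGTT, the core bound by MYB proteins such as the pachytene regulator Mybl1 (A-MYB), stood in 2 of the 26 genes (7.69%), namely Piwil1 and Tdrd7, against 4.76% of all 27025 genes with windows. CACGTG, the E-box bound by basic helix-loop-helix proteins, stood in 10 of the 26 (38.5%) against 8.09% of all genes. It was found in 1 of 8 early, 7 of 13 both-wave and 2 of 4 pachytene factors. The 10 genes were Ddx4, Ddx25, Mael, Mov10l1, Piwil1, Pld6, Stk31, Tdrd1, Tdrd9 and Fkbp6, and the last of these rose in the knockout. GCGGGAA, an E2F core, stood in 2 of the 26 (7.69%) against 5.29% of all genes. These motifs share no letters in any of the windows printed here. A match describes the letters only, and counts per class are too small to rank.
The upstream 250 bases of 4 genes follow, written 5′ to 3′ on the gene's strand, with GGCAGTT and CACGTG in capitals. Piwil1 (chr5:128735996-128736245, plus strand) and Tdrd7 (chr4:45965085-45965334, plus strand) are the pair with the MYB core, Mael (chr1:166238745-166238994, minus strand) is the most abundant gene of the set in controls, and Dazl (chr17:50293621-50293870, minus strand) is the most abundant in the knockout and holds none of the motifs.
Piwil1: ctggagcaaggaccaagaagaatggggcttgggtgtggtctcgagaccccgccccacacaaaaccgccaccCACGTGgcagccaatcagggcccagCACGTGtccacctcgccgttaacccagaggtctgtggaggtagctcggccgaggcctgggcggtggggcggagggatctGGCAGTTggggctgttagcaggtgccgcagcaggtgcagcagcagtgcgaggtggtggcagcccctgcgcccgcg
Tdrd7: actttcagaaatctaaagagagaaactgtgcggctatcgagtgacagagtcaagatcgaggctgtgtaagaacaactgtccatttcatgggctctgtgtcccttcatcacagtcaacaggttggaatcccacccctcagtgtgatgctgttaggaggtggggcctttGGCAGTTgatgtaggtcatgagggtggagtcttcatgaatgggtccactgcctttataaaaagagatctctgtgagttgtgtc
Mael: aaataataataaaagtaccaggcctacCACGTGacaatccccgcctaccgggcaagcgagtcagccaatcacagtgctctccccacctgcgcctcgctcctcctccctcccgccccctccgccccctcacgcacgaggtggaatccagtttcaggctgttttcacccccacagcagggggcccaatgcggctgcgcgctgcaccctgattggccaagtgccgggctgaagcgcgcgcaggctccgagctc
Dazl: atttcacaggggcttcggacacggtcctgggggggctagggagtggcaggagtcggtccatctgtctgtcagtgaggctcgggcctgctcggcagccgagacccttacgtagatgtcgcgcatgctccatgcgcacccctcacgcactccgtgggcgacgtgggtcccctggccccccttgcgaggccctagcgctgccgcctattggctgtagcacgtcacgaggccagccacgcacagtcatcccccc
In the Piwil1 window the E-boxes begin at -179 and -154 and the MYB core at -75 from the RefSeq start, a start that lies inside the longer GENCODE M21 gene model. The Tdrd7 MYB core begins at -83 and the Mael E-box at -223.

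Of the RNA helicases, Ddx4 (VASA) drives the exchange of RNA between PIWI proteins and marks germ cells, Mov10l1 unwinds piRNA precursors, and Ddx25 works in the chromatoid body and in export of spermatid mRNA. All 3 fell. Ddx25 (chromosome 9, 35536647 to 35558528, minus strand) held 48.26, 48.24 and 48.40 FPKM in control and 4.37, 3.96 and 4.26 in knockout libraries. Its control values differed by under 1 FPKM, and the knockout kept 8.69% of them (log2 fold change -3.25, SE 0.038, adjusted p = 1.6e-08 by limma). Ddx4 (chromosome 13, 112598333 to 112652475, minus strand) held 152.36, 159.03 and 158.99 against 45.94, 49.13 and 48.40 FPKM, 30.5% of control (log2 fold change -1.69, SE 0.034, adjusted p = 1.0e-07 by limma). Mov10l1 held 41.29, 41.85 and 40.19 against 27.91, 26.97 and 28.97 FPKM. With 68.0% of control left, Mov10l1 fell least of the helicases (log2 fold change -0.54).

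Tudor domain proteins bind the methylated arginines of PIWI proteins and build the granules. Of the 9 in the set 8 fell, 7 of them at least 2-fold, with a median of -1.88. Over all tested rows 38.5% fell, and 21.6% fell at least 2-fold. Of the Tudor genes Tdrd6 passed the filter through the control libraries only. Tdrd6 (ENSMUSG00000040140.15, chromosome 17, 43615335 to 43630299, minus strand), a large scaffold of the chromatoid body, held 109.27, 108.60 and 109.70 FPKM in control and 0.42, 0.19 and 0.35 in knockout libraries. This was the largest fall of the 30 genes, to 0.293% of the control mean (log2 fold change -6.39, SE 0.068, adjusted p = 1.3e-08 by limma). Since the knockout values lie under 1 FPKM, the size of this fold change rests on the pseudocount and ran from -4.42 with a pseudocount of 5 to -8.07 with 0.1. Tdrd7, another chromatoid body protein (chromosome 4, 45965334 to 46034761, plus strand), held 50.67, 51.33 and 47.81 against 12.47, 12.99 and 13.15 FPKM, 25.8% of control (log2 fold change -1.88).

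Tdrd1, which docks Piwil2 in the intermitochondrial cement, held 59.17, 59.91 and 59.28 FPKM in control and 13.27, 12.68 and 13.05 in knockout libraries. Its partner in precursor processing Tdrd5 went from 22.23, 21.85 and 22.25 to 4.25, 4.18 and 4.22 FPKM. These scaffolds fell alike, with log2 fold changes of -2.11 (SE 0.026) and -2.15 (SE 0.029). Rnf17, which holds back the amplification of piRNAs in pachytene cells, went from 29.28, 29.72 and 29.48 to 10.59, 10.31 and 9.99 FPKM (log2 fold change -1.43). Stk31, with a Tudor and a kinase domain, kept 50.2% of control at 22.97, 24.22 and 22.42 FPKM, from 46.74, 46.32 and 45.70 (log2 fold change -0.97).

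Tdrd9 and Tdrd12 are helicases with Tudor domains whose known role lies in the early wave, yet both fell with the later factors. Tdrd12 held 19.11, 19.30 and 19.46 FPKM in control and 4.15, 4.14 and 3.69 in knockout libraries, 20.7% of control (log2 fold change -2.02, SE 0.047, adjusted p = 1.8e-07 by limma). Tdrd9 (chromosome 12, 111971559 to 112068854, plus strand) held 36.96, 39.20 and 39.05 against 14.18, 12.96 and 13.14 FPKM, 35.0% of control (log2 fold change -1.45, SE 0.044, adjusted p = 5.5e-07 by limma). For both, every knockout library lay under every control library. Tdrd3, the broadly expressed member, held 7.98, 8.32 and 8.23 against 7.63, 7.74 and 8.23 FPKM, with overlapping groups and no call (adjusted p = 0.30 by limma).

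At the mitochondrial surface Pld6 (MitoPLD) is the nuclease that cuts piRNA precursors, Asz1 (GASZ) tethers the granule, Gpat2 takes part in primary piRNA production and Tdrkh brings PIWI proteins to the trimming step. All 4 fell, where 38.5% of all tested rows did, but by unlike amounts. Pld6 (chromosome 11, 59783897 to 59787645, minus strand) held 44.71, 44.69 and 41.78 FPKM in control and 6.18, 5.35 and 6.02 in knockout libraries. It kept 13.4% of the control level (log2 fold change -2.71, SE 0.057, adjusted p = 1.2e-07 by limma), the lowest share among the factors of both waves. Gpat2 held 45.06, 43.29 and 42.56 against 23.21, 24.48 and 22.79 FPKM (log2 fold change -0.87). Asz1 held 17.94, 16.71 and 19.01 against 9.77, 11.76 and 10.38 FPKM (log2 fold change -0.70). Tdrkh held 12.32, 11.08 and 10.82 against 7.88, 6.53 and 7.54 FPKM (log2 fold change -0.58, adjusted p = 0.00067 by limma). These 3 kept between 53.8% and 64.1% of control, with no overlap between groups.

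The 3′ ends of piRNAs are cut to length by the exonuclease Pnldc1 and then methylated by Henmt1, which protects them. Henmt1 held 12.27, 12.23 and 11.03 FPKM in control and 3.57, 4.39 and 3.20 in knockout libraries, 31.4% of control (log2 fold change -1.45, SE 0.10, adjusted p = 2.4e-05 by limma). Pnldc1 held 11.13, 10.80 and 11.58 against 9.49, 8.75 and 9.51 FPKM and kept 82.8% (log2 fold change -0.25, adjusted p = 0.0028 by limma). The trimmer and the methylase were thus at like levels in control but not in knockout libraries. The Pnldc1 call was lost with median centring (adjusted p = 0.13).

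PIWI cofactors went both ways. Mael, a granule protein needed for silencing and for pachytene piRNAs (ENSMUSG00000040629.8, chromosome 1, 166201201 to 166238747, minus strand), was the most abundant of the 30 genes in control libraries at 408.11, 415.45 and 411.55 FPKM. In the knockout it held 64.18, 61.12 and 64.16 FPKM, 15.3% of control (log2 fold change -2.69, SE 0.027, adjusted p = 1.1e-08 by limma). Gtsf1, which aids target cleavage by PIWI proteins, held 66.90, 63.65 and 67.32 against 12.90, 14.27 and 12.40 FPKM (log2 fold change -2.24). Exd1, a partner of Tdrd12 in the early wave, was low and held 6.56, 6.52 and 6.23 against 1.48, 1.52 and 1.55 FPKM (log2 fold change -1.56).

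Fkbp6, a co-chaperone of piRNA loading that also takes part in meiotic chromosome pairing, was the gene that rose. It held 54.21, 52.89 and 51.72 FPKM in control and 59.00, 62.83 and 58.21 in knockout libraries, 113% of control (log2 fold change 0.18, SE 0.037, adjusted p = 0.0049 by limma). All knockout libraries lay above all control libraries, and the rise was called under each of the 17 alternatives run for it. Its rank by level among the 30 genes went from 9 to 3.

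The remaining early factors and the nuclear ones differed little. Tex15, which links Piwil4 to DNA methylation and is needed for meiotic recombination, held 19.95, 20.24 and 20.23 FPKM in control and 17.82, 16.88 and 17.56 in knockout libraries (log2 fold change -0.20, adjusted p = 0.0011 by limma). Its call was lost with quantile normalization and median centring (adjusted p = 0.070 and 0.30). Btbd18, a nuclear protein that promotes transcription of pachytene piRNA precursors, held 8.30, 7.73 and 8.20 against 7.08, 7.73 and 7.41 FPKM. Its groups shared a value and it was not called (log2 fold change -0.11, adjusted p = 0.068 by limma). It was called without knockout replicate 2 (adjusted p = 0.048) and its sign turned with quantile normalization and median centring. Btbd18 thus stood apart from the other 5 pachytene factors, whose log2 fold changes ran from -1.43 to -6.39.

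Dazl, an RNA-binding protein that regulates translation from primordial germ cells to spermatocytes, held 110.23, 113.93 and 112.09 FPKM in control and 105.32, 106.13 and 103.96 in knockout libraries. The groups did not overlap, but the knockout kept 93.8% (log2 fold change -0.09, SE 0.023, adjusted p = 0.010 by limma). Its direction depended on the scaling and turned to 0.043 with quantile normalization and 0.069 with median centring. Nanos2 and Nanos3 are RNA-binding proteins that keep germ cells undifferentiated. Nanos2 held 1.22, 1.16 and 1.08 against 0.78, 0.99 and 0.97 FPKM. Its log2 fold change of -0.17 was called (adjusted p = 0.047 by limma), but the call was lost without any 1 of the 6 libraries. With quantile normalization the log2 fold change turned to 0.49, a larger change in the other direction. Nanos3 held 4.98, 4.03 and 4.35 against 4.95, 5.56 and 4.37 FPKM, with overlapping groups and no call (adjusted p = 0.27 by limma), although it was called higher with quantile normalization and median centring (log2 fold changes 0.31 and 0.29, adjusted p = 0.025 and 0.031).

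Tex19.1, which represses retrotransposons, had no spermatocyte row of that name. A spermatocyte row named Tex19 holds the transcript that the GC2 files call Tex19.1, and it is given apart from the counts. It held 48.22, 48.11 and 49.52 FPKM in control and 42.57, 43.62 and 43.91 in knockout libraries. The groups did not overlap, and the log2 fold change of -0.16 (adjusted p = 0.0012 by limma) lay in the range of the other early factors.

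The order of the genes by level changed accordingly. In control spermatocytes it ran Mael, Ddx4, Piwil1, Dazl, Tdrd6, and in knockout spermatocytes Dazl, Mael, Fkbp6, Ddx4, Piwil2. Piwil1 went from rank 3 of 30 to 26 and Tdrd6 from 5 to 30. In control libraries Dazl and Tdrd6 were neighbours in rank whose values did not overlap, while Piwil2 at 64.20 to 64.87 FPKM and Gtsf1 at 63.65 to 67.32 did overlap. In knockout libraries the values of Mael and Fkbp6 overlapped.

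Ratios of genes within a library do not depend on a scaling factor common to that library. Piwil1 was 1.99 to 2.22 times as abundant as Piwil2 in control libraries and 0.0465 to 0.0508 times in knockout libraries. The ratio of Tdrd6 to Tdrd1 went from between 1.81 and 1.85 to between 0.0150 and 0.0317, and that of Ddx25 to Ddx4 from between 0.303 and 0.317 to between 0.0806 and 0.0951. In these 3 chosen pairs the pachytene factor fell further than its partner, which does not hold for every such pair. The pachytene Tudor genes Rnf17 and Tdrd7 fell less than Tdrd1 and Tdrd5. Mael to Ddx4, both of the both-wave class, went from between 2.59 and 2.68 to between 1.24 and 1.397. Ddx4 to Dazl, a pair of germ cell genes, went from between 1.38 and 1.42 to between 0.436 and 0.466, and Piwil2 to Dazl from between 0.568 and 0.588 to between 0.341 and 0.343. Relative to Dazl, a reference chosen after the values were seen, 25 of the other 29 genes were lower in every knockout library. Fkbp6 was higher in every one, and Tdrd3, Btbd18 and Nanos3 overlapped. The share over all rows relative to Dazl was not computed, so this count has no background. On plain FPKM 39.6% of all tested rows were lower in every knockout library.

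**Figure D3:**
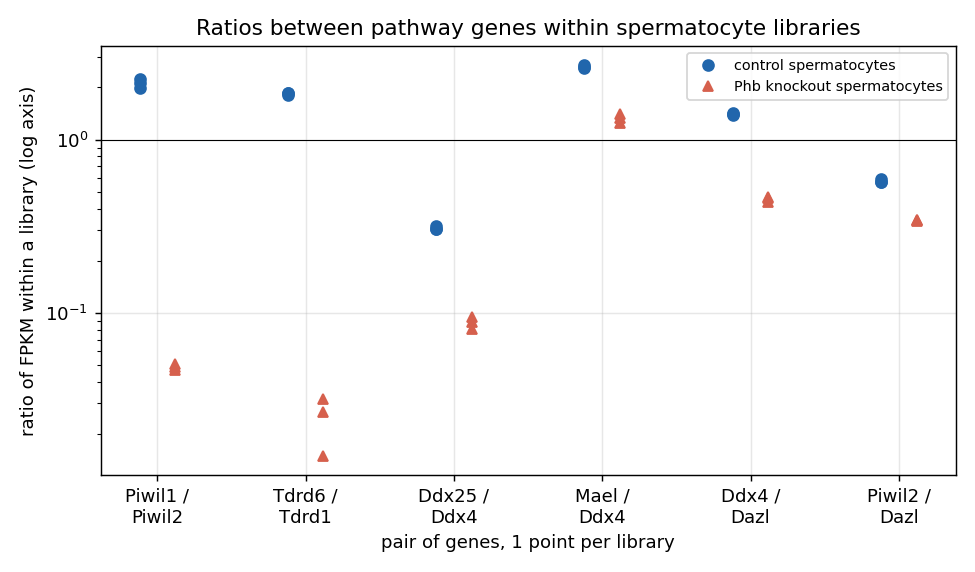
Ratios of FPKM between pairs of pathway genes within each spermatocyte library, on a log axis with 1 point per library. Circles are control and triangles knockout libraries; no pair overlaps, and the ratio of Piwil1 to Piwil2 goes from 1.99 to 2.22 down to 0.0465 to 0.0508.

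A further list of 20 genes that regulate the pathway or build germ granules was examined in the same way. In spermatocytes 17 had a row, 16 were tested, 15 fell and 1 rose, with a median of -1.66. Over all tested rows 38.5% fell. Gtsf1l, Tssk1, Tssk2 and Tsks, 4 of the 16, reached 1 FPKM in control libraries only. They entered the test through the group where they were high, so their calls support nothing. Tssk1, Tssk2 and Meioc are also in the marker lists above. Mybl1, which switches on pachytene piRNA precursors and many pathway genes, held 17.41, 18.33 and 18.16 FPKM in control and 6.95, 6.87 and 6.80 in knockout libraries (log2 fold change -1.27, SE 0.033, adjusted p = 2.7e-07 by limma). Tcfl5, a basic helix-loop-helix factor that works with Mybl1, held 89.07, 83.57 and 90.38 against 10.37, 10.12 and 9.21 FPKM (log2 fold change -3.02). Both regulators were lower in every knockout library.

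Among relatives of Gtsf1, Gtsf1l held 19.40, 20.99 and 20.17 FPKM against 0.07, 0.07 and 0.09 (log2 fold change -4.30). Gtsf2 held 17.85, 19.18 and 19.26 against 1.33 and 1.36 FPKM, and was listed at 0 in knockout replicate 3 (log2 fold change -3.48). The chromatoid body and spermatid genes Tssk2 (-4.25), Tsks (-3.53) and Tssk1 (-2.61), like Gtsf1l, passed the filter through the control libraries only. Ybx2, which stores mRNA in germ cells and was the most abundant of the list, fell from 216 ± 2.41 to 18.9 ± 0.842 FPKM (SD, n = 3), and Adad2, which takes part in a spermatocyte granule, had a log2 fold change of -1.66. Snd1, a nuclease with a Tudor domain found in most cell types and named here after its values were seen, was the gene that rose, from 6.31, 6.85 and 6.95 to 13.42, 12.60 and 12.51 FPKM (log2 fold change 0.85). The somatic marker lists rose in the same libraries, by the sums given above. A link of Snd1 to these lists was not tested.

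In GC2 cells nearly all of the pathway was near 0. Of the 24 genes with a row, 20 stayed at or under 0.51 FPKM in each of the 6 libraries, and 7 of the 31 had no row by name. Ddx4 lay between 0.04 and 0.12 FPKM, Piwil2 between 0.01 and 0.11, Dazl between 0 and 0.01, and Tex15 was listed at 0 in all 6 libraries. Markers of spermatocytes were low as well. Only Tbpl1 and Hspa2 of 10 pachytene and diplotene marker rows reached 1 FPKM in any library, Hspa2 being at 0 in control and at 0, 4.64 and 4.68 in knockdown libraries, and Prdm9 alone of 13 leptotene and zygotene rows did. Ldhc was at 0 to 0.01 and Sycp3, a protein of the synaptonemal complex, at 0 to 0.22 FPKM, so the defining markers of the labelled cell type were at or near 0.

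**Figure D4:**
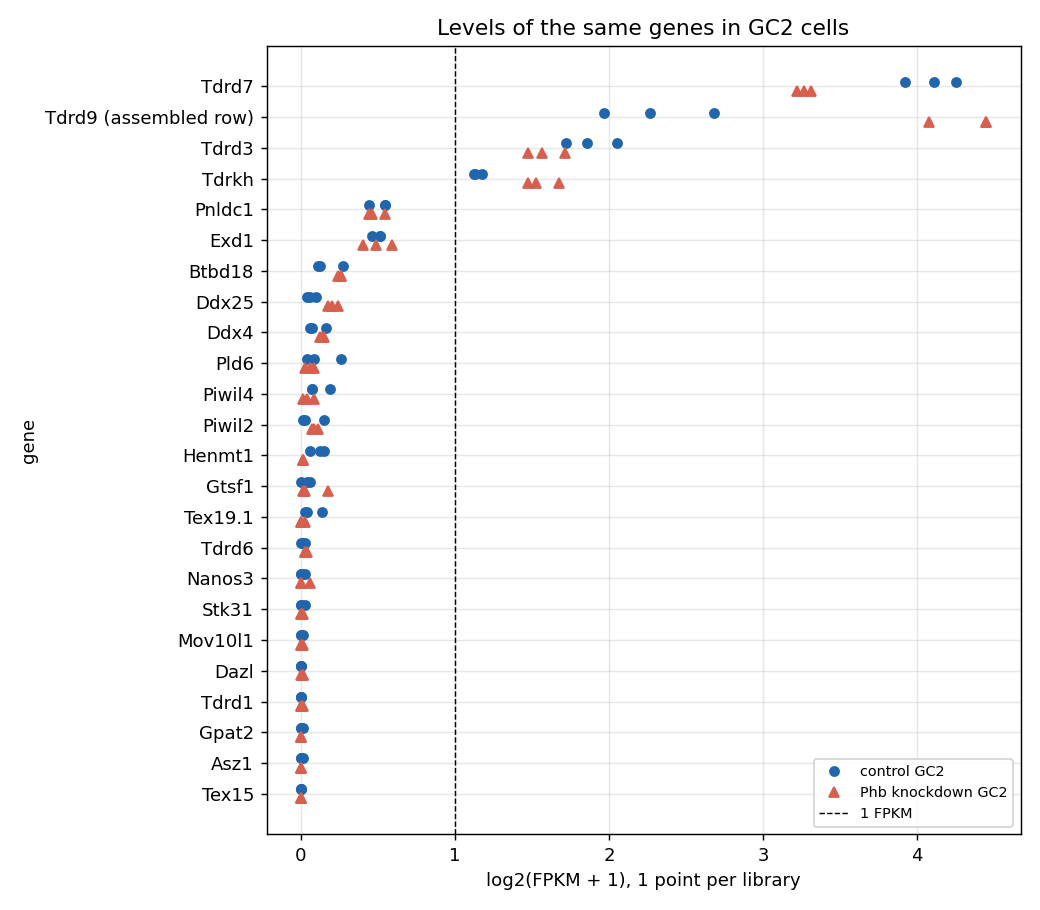
Level of the 24 genes with a row in the 6 GC2 libraries, as log2(FPKM + 1) with 1 point per library. Circles are control and triangles knockdown libraries, and the dashed line marks 1 FPKM, which only Tdrd7, Tdrd9 (an assembled row), Tdrd3 and Tdrkh pass.

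Only 4 of the 24 rows could be tested in GC2, where 24.5% of all 10791 tested rows were called, 13.9% lower and 10.7% higher, and where Phb went from 54.3 ± 2.15 to 20.02 ± 2.31 FPKM (SD, n = 3). Of the 4, 1 fell, 2 rose and 1 was not called. Tdrd7 held 18.08, 14.13 and 16.25 FPKM in control and 8.92, 8.62 and 8.34 in knockdown libraries. Every knockdown library lay lower, at 53.4% of control (log2 fold change -0.83, SE 0.095, adjusted p = 0.0038 by limma). Tdrkh held 1.19, 1.26 and 1.18 against 2.20, 1.88 and 1.78 FPKM, a rise of 0.42 on the log2 scale (SE 0.075, adjusted p = 0.015 by limma). This call was lost without control replicate 3 (adjusted p = 0.0536), with no filter on low values (adjusted p = 0.057) and with the replicate block (adjusted p = 0.0536). Tdrd3 held 3.15, 2.63 and 2.30 against 2.28, 1.96 and 1.78 FPKM, without overlap but not called (log2 fold change -0.29, adjusted p = 0.13 by limma). For all rows, 44.9% had groups that did not overlap, and 43.5% of the calls were higher, or 53.6% with quantile normalization.

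Tdrd9 in GC2 needs care, because it has a pair of rows. The annotated transcripts were at 0 to 0.02 FPKM in all 6 libraries. An assembled transcript that carries the gene's name held 2.91, 3.82 and 5.43 FPKM in control and 15.88, 20.84 and 20.78 in knockdown libraries. The assembled row rose (log2 fold change 2.02, SE 0.21, adjusted p = 0.0029 by limma), with every knockdown library above every control library, but whether its sequence belongs to the Tdrd9 mRNA was not tested.

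From the further list of 20 genes, 14 had a row in GC2 and 5 were tested. Prmt5, which methylates arginines of PIWI and other proteins, fell slightly (log2 fold change -0.32, adjusted p = 0.041 by limma). The row of its partner Wdr77 fell too (log2 fold change -0.34, adjusted p = 0.0055 by limma), but that row also names Gm42890 and Ovgp1 and cannot be given to 1 gene. Ythdc2, an RNA helicase for entry into meiosis, rose from 3.52, 3.72 and 3.66 to 5.78, 5.57 and 5.70 FPKM (log2 fold change 0.53, adjusted p = 0.0019 by limma). Snd1 and Mybl1 were not called, with Mybl1 at 2.03, 2.74 and 2.53 FPKM in control and 2.44, 2.72 and 2.07 in knockdown libraries.

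The difference between the spermatocyte and the GC2 fold change was tested in a joint limma fit over 8518 genes, of which 60.9% were called. It could be had for 4 genes. Tdrd7 fell in both kinds of cells, and its spermatocyte fold change was lower by 1.05 on the log2 scale (SE 0.11, adjusted p = 1.5e-05 by limma). Tdrkh fell in spermatocytes and rose in GC2 cells, a difference of -0.99 (SE 0.11, adjusted p = 3.0e-05 by limma). Tdrd9 differed by -3.47 (SE 0.23, adjusted p = 6.9e-07 by limma), but its rows hold different transcripts in the 2 kinds of libraries. Tdrd3 did not pass (difference 0.24, adjusted p = 0.11 by limma), and passed without GC2 control replicate 3 or GC2 knockdown replicate 1 (adjusted p = 0.032 and 0.0497).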

How the data were processed

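Per the labels' protocols, TRIzol was used for RNA extraction and a directional kit, which keeps strand, for the libraries. The authors deposited FPKM per gene row and library, with 2 decimals and no counts. Per the submitters' processing notes, HISAT2 2.1.0 and DESeq were used and GRCm38 and mm10 are named. For the quantifier and the annotation, nothing is stated in the sources used here. FPKM is relative to all mapped fragments, so a group of genes that takes more of the RNA lowers the rest.

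Named rows with 1 FPKM or more in at least 3 of a comparison's 6 libraries were tested with limma 3.58.1 (R 4.3.3, variance trend) on log2(FPKM + 1), two-sided, with Benjamini-Hochberg adjustment over all tested rows and a call under 0.05. This scale understates changes of low genes. GC2 and spermatocyte libraries hold different rows and were fitted apart, and the difference of their fold changes was fitted on 12 libraries over 8518 genes with a row of their own in both. Unnamed rows (1200 in GC2 files, 164 in spermatocyte files) were not tested. The scripts were tested on simulated data.

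Depth is not stated. Steps between low values put the spermatocyte libraries at roughly 11.4 M to 15.95 M fragments, a rough estimate, since 36.5% to 39.3% of the low values came out whole within 0.12 fragments, where the median over all depths tried was 21.1% to 23.1%. In GC2 the share was 26.1% to 39.96% over fewer rows (19.2% to 22.3% over all depths), and that estimate was not used. Replicates correlated across genes at Pearson's r of 0.924 to 0.937 for GC2 and 0.984 to 0.988 for spermatocytes.

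The 31 genes, their stage classes, the further list and the marker lists were chosen with earlier results of these data known. The text names all 31, Phb, Mybl1, up to 8 called genes of the further list per comparison with the largest fold changes and groups that do not overlap, and the most abundant gene of a marker list; other names were chosen after their values were seen. Gene positions are from GENCODE M21 on GRCm38, and promoter windows from RefSeq on GRCm38.p6. Alternatives were pseudocounts of 0.1 and 5, no filter or 5 FPKM, quantile normalization, median centring, mitochondrial rows left out, summed rows, no variance trend, a replicate block, each library left out and, added after the data were seen, scaling to Dazl. Summaries and figures used matplotlib 3.10.9, numpy 2.4.6 and pandas 2.3.3 under Python 3.11.15.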

Additional observations from a re-analysis of the deposited data

Results flagged for a closer look

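The response of 3 genes differed between spermatocytes and GC2 cells by the joint test of both fold changes (limma, adjusted over 8518 genes, of which 60.9% passed). Tdrd7, the chromatoid body scaffold, fell in both. Its difference of fold changes, spermatocyte minus GC2, was -1.05 (log2, adjusted p = 1.5e-05 by limma). All 3 depleted libraries lay below all 3 control libraries in both kinds of cells. Tdrkh, the mitochondrial adaptor of piRNA trimming, fell in every spermatocyte knockout library and rose in every GC2 knockdown library, a difference of -0.99 (adjusted p = 3.0e-05), from a GC2 level of 1.18 to 2.20 FPKM. The GC2 rise of Tdrkh on its own lost its call without control replicate 3, with no filter and with the replicate block (adjusted p = 0.0536, 0.057 and 0.0536). For Tdrd9, the difference was -3.47 (adjusted p = 6.9e-07), between annotated transcripts in spermatocytes and an assembled transcript in GC2 cells, so it does not compare the same RNA.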

How the results depend on the processing

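In spermatocytes 22 of 30 genes kept direction and side of the threshold under every alternative run; the others were Btbd18, Dazl, Nanos2, Nanos3, Piwil4, Pnldc1, Tdrd3 and Tex15. In GC2 3 of 4 did, Tdrkh being the exception. The median log2 fold change of all spermatocyte rows moved from 0.047 to 0.28 with quantile normalization and 0.21 with median centring, and small changes moved with it. Signs turned with quantile normalization for Nanos2 (0.49), Piwil4 (0.21), Tdrd3 (0.083), Btbd18 (0.021) and Dazl (0.043), with median centring for Tdrd3 (0.11), Btbd18 (0.049) and Dazl (0.069), and for Tdrd3 without mitochondrial rows (0.029) and with scaling to Dazl (0.032). The cause was not tested. The genes that rose then numbered 4 with quantile normalization and 4 with median centring. Of the genes that fell, 21 to 26 were counted over all alternatives.

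The class medians for early, both-wave and pachytene factors were -0.28, -0.99 and -2.72 with a pseudocount of 0.1, and -0.13, -0.86 and -2.08 with 5. They were -0.015, -0.85 and -2.43 with quantile normalization, -0.025, -0.81 and -2.40 with median centring, -0.13, -0.88 and -2.50 without mitochondrial rows, and -0.13, -0.88 and -2.48 with scaling to Dazl, where Dazl is left out. The filter of 5 FPKM drops low early genes and moves the early median to -1.45. That is below the both-wave median of -0.97, whose genes all pass this filter, so the order of these classes turns. This filter left 8240 rows called in place of 12672. Leaving out 1 library gave -0.20 to -0.18, -0.996 to -0.94 and -2.58 to -2.55.

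In GC2, the genes that rose numbered 1 with the filter of 5 FPKM, 1 with the replicate block, and 1 to 2 with a library left out, the lower without control replicate 3, since Tdrkh was dropped by the filter or lost its call. Same-numbered libraries deviated together only weakly (correlations 0.12, 0.078 and 0.061 in GC2, each highest with its own number, and 0.0074, -0.054 and 0.0074 in spermatocytes), so the numbers were not taken as pairs. With the replicate block 1985 in place of 2649 GC2 rows and 12482 in place of 12672 spermatocyte rows were called, and Nanos2 and Piwil4 lost their calls (adjusted p = 0.11 and 0.053). With no counts deposited, no count test was run, and levels under 1 FPKM have unknown counting error.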
